A study of Mus musculus with 9 samples.

Results

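Chemically induced extraembryonic endoderm-like cells (ciXEN cells) were compared between an early and a late passage of culture. The comparison used 6 of the 9 RNA-seq libraries of the study: lines 1-1, 2-1 and 3-3, each sequenced at passage 5 (p5) and at passage 30 (p30). A p5 and a p30 library with the same line name were taken as the same line, and the study's design calls the 3 lines separate batches of cells. The other 3 libraries were of the starting cells, CF-1 mouse embryonic fibroblasts (MEFs) at passage 3. All ciXEN lines came from CF-1 MEFs that were kept on Matrigel with serum, bFGF, VPA, CHIR99021, RepSox, Parnate, forskolin, AM580 and EPZ004777, with no transgene. Clones were picked by hand and then kept in a maintenance medium with the same agents, with bFGF, CHIR99021 and forskolin lowered. This medium was shared by p5 and p30, so the groups differed by time in culture and not by a stated treatment. There was 1 library per line and passage, and the sources used here do not say whether the clones of a line were pooled.

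XEN cells are the cultured form of the primitive endoderm, the layer of the early mouse embryo that gives rise to the visceral and parietal endoderm of the yolk sac. Gata6, Gata4, Sox17, Sox7 and Foxa2 are transcription factors of this lineage. Parietal endoderm is a migratory cell that lays down basement membrane, while visceral endoderm is an epithelium that absorbs and secretes proteins in a way that resembles the liver and the gut. Cells of this lineage can therefore hold epithelial and mesenchymal features, and these features are set by opposed transcription factors. GRHL2, OVOL1 and OVOL2 maintain epithelial genes, while ZEB and SNAI proteins repress them.

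Values are FPKM (fragments mapped to a transcript, scaled by its length and by the mapped fragments of the library) as deposited per transcript, summed per gene. The table held 13787 genes, and tests covered the 12443 whose average over the 9 libraries reached 0.5 FPKM. Values of a gene are given for lines 1-1, 2-1 and 3-3, in this order throughout. Each ciXEN library held 10593 to 10974 genes at 1 FPKM or more, and its FPKM added up to 330511 to 341556. A change is a difference of log2(FPKM + 1), p30 minus p5, which understates the change of genes with low FPKM. Folds given for lines are ratios of FPKM + 1. Rose and fell are used of genes with a Benjamini-Hochberg adjusted p under 0.05 in a two-sided limma fit to all 9 libraries, and called means the same. That fit pools the spread within every group, so the MEF libraries help to set the p-values. For genes at or near 0 in MEFs this can make the spread look smaller than it is among ciXEN libraries. Nothing but the line name ties a library to a separate culture, so p-values measure the spread between these libraries only. In bulk RNA, fewer cells that express a gene and less RNA of that gene per cell cannot be told apart. The p5 library of line 1-1 stood apart in the genes of chromosome 15, and the p30 libraries of lines 1-1 and 2-1 in Y-linked genes, as given at the end of the results.

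The ciXEN libraries of both passages held the transcripts that define XEN cells, as the label states. Sox17 was at 178, 173 and 176 FPKM at p5 and 228, 183 and 165 at p30, and Gata4 at 157, 163 and 154 and then 191, 262 and 282. Foxa2 was at 82.3, 35.6 and 27.1 FPKM and then 67.1, 70.8 and 69.7. None of the 3 passed the test, with adjusted p = 0.79, 0.17 and 0.27. The p30 values of Gata4 all lay above those of p5, while the ranges of Sox17 and Foxa2 overlapped. Epcam, an adhesion molecule of epithelia, was at 321, 373 and 302 FPKM at p5 and 292, 142 and 200.1 at p30, and Pdgfra, a receptor found on primitive endoderm, at 278, 238 and 237 and 229.6, 152 and 233. Neither passed (adjusted p = 0.32 and 0.3), although the p30 values of each lay below those of p5. Col1a1, the main collagen of fibroblasts, stayed at 1.89, 1.94 and 1.88 FPKM and 1.69, 1.66 and 1.64 FPKM, against 1054, 1255 and 1192 in the MEF libraries. The summed FPKM of 18 fibroblast genes ranged from 97.5 to 141 at p5 and from 84.03 to 153 at p30, against 6145 to 7103 in MEFs. Between the passages 0 of the 18 were called, where 8.69% of all genes were. Of 9 tested macrophage genes 1, Cd14, fell, where 5.61% of all genes fell. Adgre1, Csf1r and Tyrobp were at or near 0 FPKM in all 6 ciXEN libraries. Afp, Ttr and Alb, abundant products of visceral endoderm or of hepatocytes, were low: Ttr was at 1.03, 0.603 and 0.854 FPKM at p5 and 0.614, 0.518 and 0.687 at p30, and Afp and Alb were at or near 0.

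Between p5 and p30, 383 genes rose (3.08% of the genes tested) and 698 fell (5.61%), in all 8.69%. Every one of the 1081 moved in the same direction in all 3 lines. The test favours this, since it picks genes whose passages lie apart in these same libraries, so it is not separate support. A stricter description asks for a change of at least 1.5-fold in each line: 165 genes were higher (1.33%) and 420 lower (3.38%) by that measure, in all 4.7%, and 135 and 377 of these were also called. At least 4-fold in every line, 3 genes were higher and 12 lower. The ranges of p5 and p30 did not overlap for 1541 genes that were higher (12.4%) and 2046 that were lower (16.4%) at p30. Across genes the within-line changes of 2 lines correlated with a Pearson r of 0.40 to 0.49 (12443 genes, which are not independent replicates). Line 2-1 had the most genes at least 2-fold lower at p30, 831, against 628 in line 1-1 and 502 in line 3-3. The lines lay slightly further apart at p30, with a median SD over lines of 0.19 on the log2 scale, than at p5, with 0.15.

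The count of calls depended on the libraries in the fit. With the ciXEN libraries alone 431 genes were called. With the line as a block in that fit limma called 0 genes at adjusted p under 0.05 (smallest adjusted p = 0.11), while 2538 genes had an unadjusted p under 0.05, among them 381 of the 383 that rose and 695 of the 698 that fell. Leaving out the p5 library of line 1-1 left 443 calls, that of line 2-1 left 587, and leaving out the p30 library of line 2-1 left 705. For this reason the genes called among those that the naming rule gave were tested again in 13 fits: 9 that leave out 1 library, 1 with the ciXEN libraries alone, and 3 with other scalings. Of these 186 genes, to which Snai2 and Hoxc9 do not belong, 69 passed in all 13 fits, and such genes are said below to have held. None of the 186 passed with the line as a block. That fit, the block on all 9 libraries, other pseudocounts and filters and the fit without the trend are not among the 13. Lost calls are not given below for every gene that did not hold. With library medians set equal, which moved the median change of all genes from −0.02 to 0.08, 775 genes rose and 536 fell, so that rises outnumbered falls under this scaling. None of these 186 changed direction in any of the 13 fits. Each already moved the same way in all 3 lines, and leaving out a MEF library does not alter the change itself. The kept direction is therefore not separate support.

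The rises are described first, from the 20 genes with the largest change in their least changed line. Necab2, a calcium-binding protein of neurons (ENSMUSG00000031837, chr8:119446719-119472640, GRCm38), was at 1.06, 0.892 and 0.909 FPKM at p5 and 6.21, 5.81 and 5.83 at p30 (log2 change 1.83, SE 0.12, adjusted p = 5.5e-04). The lines were nearly identical at each passage and far from overlapping. Bex2, an X-linked gene named for its expression in brain, went from 40.2, 37.8 and 36.9 to 101, 91.6 and 83.5 FPKM (log2 change 1.24, SE 0.14, adjusted p = 0.0024). Nrgn, a calmodulin-binding protein of synapses, went from 1.97, 2.46 and 3.60 to 23.8, 11.7 and 9.42 FPKM (log2 change 2.04, SE 0.30, adjusted p = 0.0056), and Prtg, a cell surface protein of the early embryo, from 1.15, 1.02 and 1.53 to 5.63, 9.03 and 4.71 FPKM (log2 change 1.70, SE 0.21, adjusted p = 0.0028). Necab2, Nrgn and Prtg were close to 0 in every MEF library and Bex2 was at 1.92, 1.01 and 1.61 FPKM there, and all 4 held.

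Others of the 20 were enzymes, kinases and proteins of membranes. Slc26a10, of an anion transporter family, was at 0.00261, 1.47 and 1.95 FPKM at p5 and 19.6, 23.2 and 25.9 at p30 (log2 change 3.61, SE 0.35, adjusted p = 0.0012). By the ratio of FPKM + 1 it was the sole gene at least 8-fold higher in all 3 lines. Stk32b, a serine/threonine kinase, was at 0.131, 0.423 and 0.299 FPKM and then 4.56, 4.20 and 6.92 (log2 change 2.26, SE 0.23, adjusted p = 0.0015). Ddah2, of the dimethylarginine hydrolase family, was at 9.42, 7.77 and 4.24 FPKM and then 33.3, 29.4 and 27.05, close to the 24.1, 27.4 and 23.5 of MEFs (log2 change 1.98, SE 0.22, adjusted p = 0.0024). By the rule that picked them, the p30 libraries of each lay above all p5 libraries. Bin1, which bends membranes in endocytosis, went from 7.22, 5.34 and 6.69 to 23.2, 20.5 and 18.1 FPKM (log2 change 1.55, SE 0.13, adjusted p = 0.0011). Ptk7, a receptor-like protein of planar cell polarity, went from 2.05, 2.03 and 1.84 to 6.63, 7.78 and 5.92 FPKM (log2 change 1.38, SE 0.12, adjusted p = 0.0011), and Chn2, an inhibitor of the small GTPase Rac, from 5.02, 5.59 and 4.81 to 13.5, 22.3 and 12.96 (log2 change 1.45, SE 0.20, adjusted p = 0.0045). These 6 genes held. Ppp2r2c, a phosphatase subunit, went from 8.30, 6.06 and 3.03 to 35.6, 25.9 and 17.7 FPKM (log2 change 2.04, SE 0.32, adjusted p = 0.007) and passed in 12 of the 13 fits, failing with the ciXEN libraries alone (adjusted p = 0.054). Emb, which encodes the membrane glycoprotein embigin, likewise failed in that fit alone and went from 3.76, 1.90 and 4.04 to 11.5, 16.5 and 49.7 FPKM (log2 change 2.44, SE 0.45, adjusted p = 0.013). Lmo2, a transcription cofactor of blood and endothelium, went from 0.447, 1.504 and 0.584 to 2.51, 11.97 and 5.60 FPKM, and Evc, a protein of the base of cilia, from 2.501, 1.48 and 4.27 to 8.67, 6.04 and 10.8. Lmo2 and Evc failed without 3 of the libraries each, and with the ciXEN libraries alone.

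**Figure D1:**
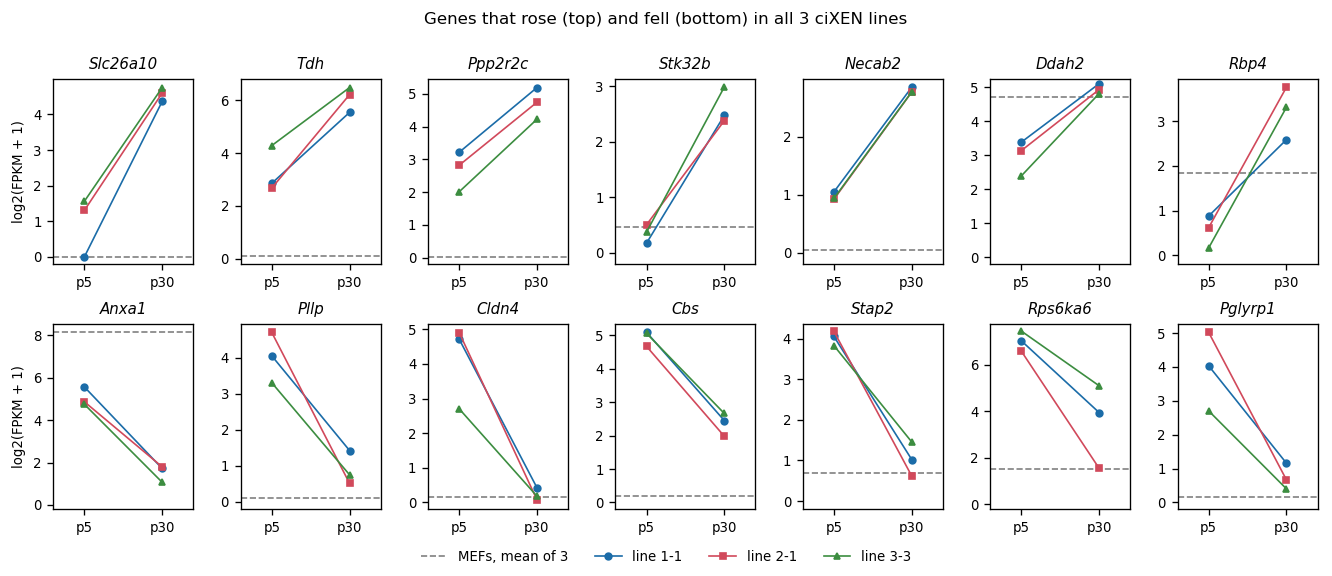
Levels of 14 genes at p5 and p30 as log2(FPKM + 1) on the vertical axis, 1 line per ciXEN line, with the mean of the 3 MEF libraries dashed. The top row holds the 7 rises and the bottom row the 7 falls whose least changed line changed most. All 3 lines move the same way in each, as the rule that picked them asks.

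The 20 falls with the largest change in their least changed line follow, again only genes whose passages did not overlap. Anxa1, a phospholipid-binding protein, was at 46.4, 28.2 and 25.9 FPKM and then 2.29, 2.47 and 1.10 (log2 change −3.53, SE 0.25, adjusted p = 5.5e-04). By the ratio of FPKM + 1 it was the sole gene at least 8-fold lower in all 3 lines. Some genes with lower FPKM fell at least 8-fold by FPKM alone. Stap2, a signalling adaptor (ENSMUSG00000038781, chr17:55997077-56005584), went from 15.6, 17.2 and 13.2 FPKM to 1.03, 0.535 and 1.75 (log2 change −2.99, SE 0.21, adjusted p = 5.5e-04). Slc13a4, a sulfate transporter, went from 16.6, 8.07 and 8.34 to 1.15, 0.723 and 1.09 FPKM (log2 change −2.53, SE 0.25, adjusted p = 0.0012). No p30 library came near the p5 range of these genes. Atp2c2, a calcium and manganese pump of the secretory pathway, went from 8.39, 10.2 and 3.58 to 0.232, 0.543 and 0.305 FPKM (log2 change −2.53, SE 0.29, adjusted p = 0.0024), and Trpc6, a calcium-permeable channel, from 4.77, 8.58 and 6.61 to 0.668, 0.110 and 0.991 (log2 change −2.28, SE 0.25, adjusted p = 0.002). Vcam1, an adhesion molecule that MEFs express at 57.2, 58.8 and 68.1 FPKM, went from 11.2, 4.39 and 6.52 to 0.513, 0.240 and 0.650 in ciXEN cells (log2 change −2.44, SE 0.26, adjusted p = 0.002). All 6 held.

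Other members of the list of steepest falls were genes of signalling and defence. Rps6ka6, a ribosomal S6 kinase, was abundant at p5, with 129.5, 94.9 and 173 FPKM, and at 14.4, 1.94 and 33.2 at p30 (log2 change −3.49, SE 0.75, adjusted p = 0.024). The size of its fall varied between lines, −3.08, −5.03 and −2.35 on the log2 scale, and the call was lost without any 1 of the p5 libraries and with the ciXEN libraries alone (adjusted p = 0.1). Il18, a cytokine of epithelia and macrophages, went from 18.5, 17.5 and 11.8 to 2.25, 1.10 and 3.24 FPKM (log2 change −2.44, SE 0.33, adjusted p = 0.0042), and Cfc1, a co-receptor of the growth factor Nodal, from 7.13, 16.4 and 18.1 to 1.06, 0.923 and 1.54 (log2 change −2.69, SE 0.29, adjusted p = 0.002). Igfbp5, an IGF-binding protein, went from 55.7, 70.5 and 44.6 to 13.1, 5.76 and 11.9 FPKM (log2 change −2.41, SE 0.31, adjusted p = 0.0037). Il18, Cfc1 and Igfbp5 held, and by the rule their p30 values lay below every p5 value. Fuom, a fucose mutarotase, and Mgst1, a membrane-bound glutathione transferase, fell by 2.44 on the log2 scale each and held as well. Rap1gap, which switches off the small GTPase Rap1, went from 9.91, 23.5 and 18.7 to 1.91, 3.17 and 3.93 FPKM (log2 change −2.15, SE 0.32, adjusted p = 0.0059) and held. Blnk, an adaptor best known from B cells, went from 48.1, 60.6 and 34.6 to 9.92, 0.704 and 7.79 FPKM, nearly lost in line 2-1, and its call failed without the p5 library of line 1-1 or of line 2-1. Pglyrp1, which binds bacterial peptidoglycan, went from 15.4, 31.5 and 5.51 to 1.23, 0.584 and 0.318 FPKM (log2 change −3.18, SE 0.49, adjusted p = 0.0065) and failed with the ciXEN libraries alone (adjusted p = 0.054).

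Epithelial genes fell more often than they rose. Over 4 lists of tight junction, adhesive junction, keratin and apical or polarity genes, 18 of 65 tested genes fell and 2 rose, against 5.61% and 3.08% of all genes. Without the p5 library of line 1-1, 8 of the 65 fell and 0 rose, against 2.39% of all genes that fell in that fit, and the number that fell ran from 8 to 18 over the 9 fits without a library. With the ciXEN libraries alone 8 fell, against 2.12% of all genes. The median change was −0.62 for tight junctions, −0.29 for desmosomes and adherens junctions, −0.55 for keratins and −0.79 for apical and polarity genes, against −0.02 for all genes. The 4 medians stayed below 0 under all 3 other scalings. Within line 1-1, however, the median of the desmosome and adherens junction genes was 0.16, and 11 of its 19 genes were higher at p30. Cdh1, which encodes E-cadherin (ENSMUSG00000000303, chr8:106603351-106670246), was at 85.3, 115 and 68.2 FPKM at p5 and 40.4, 14.3 and 22.5 at p30 (log2 change −1.84, SE 0.37, adjusted p = 0.02). Its p30 values lay below all p5 values, yet none reached the MEF range of 0 to 0.903 FPKM. The call was lost without the p5 library of line 1-1 (log2 change −1.86) or of line 2-1 (−1.65) and with the ciXEN libraries alone (adjusted p = 0.07).

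Of the transcription factors that maintain epithelia, 3 fell and passed in more fits than Cdh1 did. Grhl2 (ENSMUSG00000022286, chr15:37233036-37363569) was at 16.8, 11.997 and 11.3 FPKM at p5 and 1.67, 0.921 and 3.27 at p30 (log2 change −2.34, SE 0.27, adjusted p = 0.0024). Ovol2 went from 17.1, 15.1 and 18.9 to 3.77, 2.95 and 5.31 FPKM (log2 change −1.87, SE 0.18, adjusted p = 0.0012), and Ovol1 from 2.05, 1.37 and 1.73 to 0.115, 0.193 and 0.137 (log2 change −1.24, SE 0.13, adjusted p = 0.002). For each of them the highest p30 library lay well below the lowest p5 library. Grhl2 lies on chromosome 15, which stood apart in line 1-1, and its changes in lines 2-1 and 3-3 were −2.76 and −1.53. Esrp2, a splicing regulator that keeps the epithelial forms of many transcripts, went from 21.8, 25.8 and 18.3 to 7.69, 8.20 and 11.8 FPKM (log2 change −1.17, SE 0.18, adjusted p = 0.0066). These 4 genes held. In MEFs Ovol1 and Ovol2 were listed at 0, Grhl2 was at 0.0279, 0.0180 and 0.0336 FPKM and Esrp2 at 0.381, 0.491 and 0.385.

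The list of epithelial-mesenchymal transition genes held these 4, Cdh1, Zeb1, Snai2 and Vim among its called members. In it 3 of 15 rose and 5 fell, where 3.08% of all genes rose and 5.61% fell. Zeb1, which represses Cdh1, rose from 1.18, 0.898 and 1.61 to 2.31, 5.34 and 3.73 FPKM (log2 change 1.07, SE 0.25, adjusted p = 0.03), still below the 14.5, 18.4 and 20.97 of MEFs. This call was lost without any 1 of 5 libraries, MEFs 2, p5 of lines 1-1 and 2-1 and p30 of lines 2-1 and 3-3, with log2 changes of 0.84 to 1.07 there. Snai2, a relative of Snai1, rose from 1.72, 2.59 and 2.05 to 5.76, 3.30 and 5.68 FPKM (log2 change 0.90, SE 0.22, adjusted p = 0.036), against 129, 116 and 178 in MEFs. Snai1 was at 42.2, 41.8 and 43.7 FPKM at p5 and 57.1, 81.9 and 50.9 at p30, with no overlap but an adjusted p = 0.068. Zeb2 showed no shared direction, with 3.85, 1.92 and 3.51 FPKM and then 1.35, 4.37 and 1.13 (adjusted p = 0.52). Vim, which encodes the intermediate filament vimentin, was at 128, 77.9 and 102 FPKM at p5 and 309.7, 323 and 304 at p30 (log2 change 1.62, SE 0.16, adjusted p = 0.0012) and held. Its p30 values were alike in the 3 lines and remained below the 895, 731 and 878 of MEFs.

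Among structural genes, members of tight junctions, desmosomes and the apical membrane fell. Cldn4, a tight junction claudin, fell from 25.3, 29.1 and 5.51 to 0.339, 0.0502 and 0.129 FPKM (log2 change −3.89, SE 0.49, adjusted p = 0.0031) and held. Cldn7, another claudin, was at 44.7, 62.8 and 19.8 FPKM and then 16.6, 6.54 and 5.09 (log2 change −2.08, SE 0.48, adjusted p = 0.03), and Tjp3, a scaffold of the junction, at 18.7, 25.7 and 10.2 and then 6.06, 1.44 and 1.61 (log2 change −2.34, SE 0.42, adjusted p = 0.012). Line 1-1 kept the most of both at p30. Tjp3 passed in every fit but that of the ciXEN libraries alone, while Cldn7 passed in 3 of the 9 fits without a library, where its change ran from −2.54 to −1.73. Marveld3, a membrane protein of tight junctions, went from 18.4, 17.03 and 18.8 to 9.56, 3.58 and 7.22 FPKM (log2 change −1.37, SE 0.26, adjusted p = 0.016). Its call was lost without the p5 library of line 1-1 and with the ciXEN libraries alone. Pkp3 and Jup, plakophilin and plakoglobin of desmosomes, went from 4.22, 3.76 and 1.95 to 0.353, 0.287 and 0.261 and from 11.6, 8.74 and 7.78 to 4.17, 3.14 and 2.40 FPKM (log2 change −1.30, SE 0.20, adjusted p = 0.0063 for Jup), and both held. Ap1m2, an adaptor for sorting to the basolateral membrane, was at 14.5, 23.95 and 0.739 FPKM at p5 and listed at 0 in lines 1-1 and 2-1 at p30. Its call passed in 1 of the 9 fits without a library. Pllp, plasmolipin, a protein of apical membranes and of myelin, went from 15.5, 24.9 and 8.87 to 1.68, 0.428 and 0.683 FPKM (log2 change −3.12, SE 0.34, adjusted p = 0.002) and held.

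The 2 epithelial genes that rose were Cgnl1 and Prom1. Cgnl1, a paralog of the junction protein cingulin, rose from 2.72, 2.86 and 3.81 to 7.33, 6.64 and 14.2 FPKM (log2 change 1.27, SE 0.25, adjusted p = 0.017), and Prom1, a protein of membrane protrusions, from 4.90, 6.19 and 10.6 to 26.01, 12.5 and 27.1 (log2 change 1.46, SE 0.32, adjusted p = 0.025). Cgnl1 passed in 7 and Prom1 in 5 of the 9 fits without a library, and neither passed with the ciXEN libraries alone. Ocln, occludin, was at 29.01, 32.3 and 37.7 FPKM and then 41.9, 17.8 and 17.3 (adjusted p = 0.41), higher in line 1-1 and lower in the other lines. Tjp1, the common scaffold of tight junctions, was at 39.3, 35.97 and 34.4 FPKM and then 31.6, 37.9 and 27.97 (adjusted p = 0.4). Keratins remained abundant: Krt8 was at 662, 503 and 532 FPKM and then 430.1, 477 and 356, and Krt18 at 756, 580.3 and 513 and then 432, 394 and 330.3, with adjusted p = 0.71 and 0.3 and with the p30 values below those of p5. Krt19 fell from 142, 122 and 101 to 65.4, 69.8 and 70.8 FPKM (log2 change −0.80, SE 0.19, adjusted p = 0.036), a call that 6 of the 9 fits without a library did not keep.

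**Figure D2:**
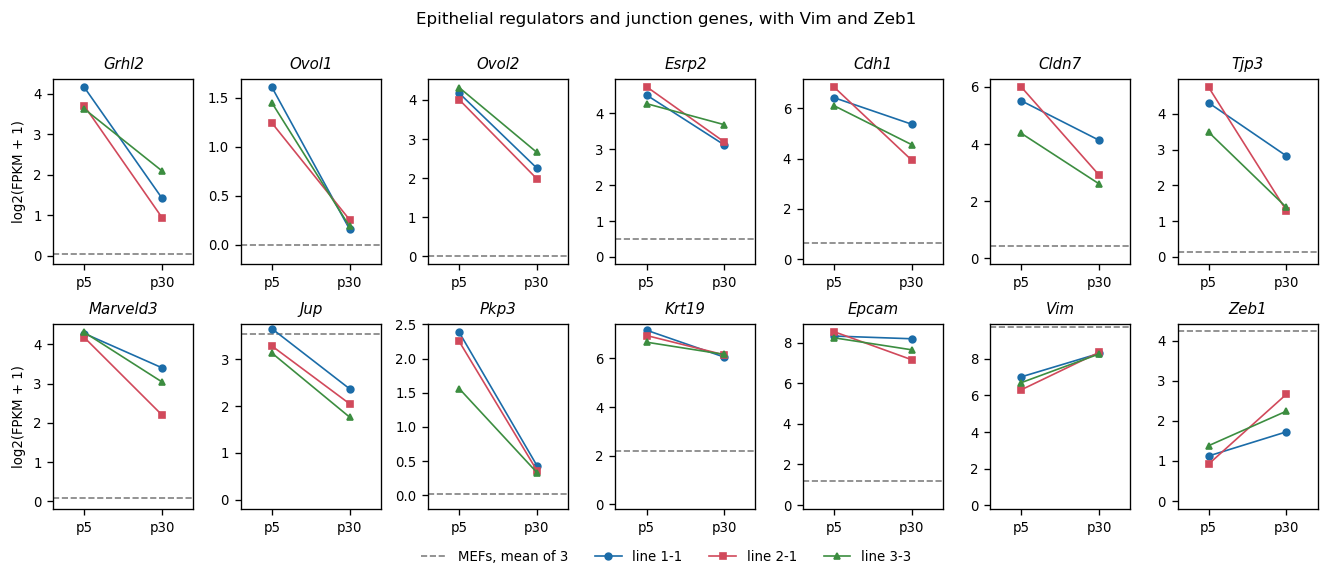
Levels at p5 and p30 as log2(FPKM + 1) for 4 epithelial regulators, junction and keratin genes, Vim and Zeb1, 1 line per ciXEN line, with the mean of the MEFs dashed. At p30 Ovol1 lies close to the level of MEFs, while Epcam and Krt19 remain far above it.

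The E-box CAGGTG, read on either strand, is the sequence that ZEB and SNAI repressors bind, so the promoters of 3 fallen junction genes are shown with it in capitals. Each window spans a RefSeq transcription start on GRCm38.p6, most of it upstream, and is written 5′ to 3′ on the strand of the gene. The windows were picked because they hold a match.
Cldn4, chr5:134946885-134947184, minus strand: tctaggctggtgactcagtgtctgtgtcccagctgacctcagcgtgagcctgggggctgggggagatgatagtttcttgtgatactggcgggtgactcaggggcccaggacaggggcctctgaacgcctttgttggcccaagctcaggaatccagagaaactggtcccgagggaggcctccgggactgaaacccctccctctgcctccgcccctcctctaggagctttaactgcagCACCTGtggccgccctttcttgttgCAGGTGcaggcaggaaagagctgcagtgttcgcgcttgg
Cldn7, chr11:69965171-69965470, plus strand: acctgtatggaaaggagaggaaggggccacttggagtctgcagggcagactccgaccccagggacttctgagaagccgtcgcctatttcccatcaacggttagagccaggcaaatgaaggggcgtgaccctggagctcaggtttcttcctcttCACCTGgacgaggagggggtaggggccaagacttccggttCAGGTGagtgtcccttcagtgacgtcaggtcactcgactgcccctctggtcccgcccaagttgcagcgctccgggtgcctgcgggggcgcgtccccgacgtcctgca
Tjp3, chr10:81291218-81291517, minus strand: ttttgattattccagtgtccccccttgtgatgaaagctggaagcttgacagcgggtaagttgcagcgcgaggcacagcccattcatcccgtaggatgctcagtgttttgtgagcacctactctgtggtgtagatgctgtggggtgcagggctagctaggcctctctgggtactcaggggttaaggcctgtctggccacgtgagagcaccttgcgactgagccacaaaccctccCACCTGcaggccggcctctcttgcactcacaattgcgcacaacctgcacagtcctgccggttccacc
The windows of Cldn4 and Cldn7 held 2 matches each, 1 on either strand, and that of Tjp3 held 1. The other window of Cldn7 (chr11:69964529-69964828) and that of Jup held 0. Of the 18 epithelial genes that fell, 11 had windows in the RefSeq table, and 8 of these had a match, in 9 of 13 windows (69.2%). Of all 32851 windows 20.2% held one. The tested epithelial genes that did not fall were also rich in it: 31 had windows, and 20 of these had a match, in 23 of 43 windows (53.5%). The motif was thus common in epithelial genes whether or not they fell, and the difference between the shares was not tested. Among the 20 steepest rises 4 of 20 windows held it and among the 20 steepest falls 7 of 27. A match is a run of letters and does not show binding.

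In the visceral and primitive endoderm lists more genes rose than fell. Of 16 tested visceral endoderm genes 5 rose and 1 fell (median change 0.41), and of 12 primitive endoderm genes 3 rose and 0 fell (median 0.22). Of all genes 3.08% rose and 5.61% fell. Both medians stayed above 0 under the other scalings. With the ciXEN libraries alone 3 and 1 of these genes rose, against 167 of all 12443 genes. Of 7 tested definitive endoderm and hepatocyte genes 1 rose, Onecut1, and 1 fell, Foxa3 (median −0.25). Dab2, an endocytic adaptor that primitive endoderm needs (ENSMUSG00000022150, chr15:6299788-6440712), went from 16.2, 14.9 and 16.7 to 57.6, 31.7 and 57.8 FPKM (log2 change 1.51, SE 0.20, adjusted p = 0.0041) and held. Cubn and Lrp2, the receptors cubilin and megalin with which visceral endoderm takes up protein, went from 8.34, 6.05 and 12.8 to 23.7, 54.7 and 56.01 and from 43.7, 51.3 and 49.1 to 64.2, 68.01 and 59.2 FPKM. Both were higher at p30 in every line, but Lrp2, with a log2 change of 0.40 (adjusted p = 0.042), was called in none of the fits without a library. Rbp4, the retinol carrier, reached 5.03, 12.6 and 8.98 FPKM from 0.839, 0.535 and 0.120 (log2 change 2.67, SE 0.32, adjusted p = 0.0027) and held, as did Apoe, a lipoprotein, at 99.3, 127 and 132 and then 301, 202 and 263 FPKM. Spink1, a trypsin inhibitor, was listed at 0 in lines 1-1 and 3-3 at p5 and was at 3.62, 1.71 and 3.01 FPKM at p30 (log2 change 1.68, SE 0.23, adjusted p = 0.0046).

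Of the lineage regulators, Gata6 and Sox7 rose. Gata6 went from 41.1, 34.7 and 27.1 to 58.9, 54.2 and 67.6 FPKM (log2 change 0.81, SE 0.16, adjusted p = 0.017), and Sox7 from 93.4, 114 and 93.3 to 195, 167 and 133 (log2 change 0.70, SE 0.18, adjusted p = 0.042), a call that was lost in 7 of the 9 fits without a library. Gata6 passed in all 9 of these fits but not with the ciXEN libraries alone. Dkk1, a Wnt antagonist of the anterior visceral endoderm, fell from 11.5, 9.17 and 9.87 to 5.88, 3.92 and 6.60 FPKM (log2 change −0.81, SE 0.18, adjusted p = 0.028), and F2, prothrombin, from 62.4, 52.3 and 49.5 to 17.7, 36.9 and 26.8 (log2 change −1.04, SE 0.23, adjusted p = 0.025). Dkk1 passed in 5 and F2 in 6 of the 9 fits without a library, and neither passed with the ciXEN libraries alone. Hnf4a, a regulator of visceral endoderm and liver, was at 2.57, 1.66 and 3.07 FPKM and then 1.49, 0.551 and 1.29 (adjusted p = 0.079), lower in each line. Onecut1, a liver transcription factor, rose from 1.34, 1.48 and 1.40 to 3.26, 3.48 and 2.94 FPKM (log2 change 0.81, SE 0.12, adjusted p = 0.0059) and held. Of 16 parietal endoderm genes 2 rose and 2 fell, where 3.08% of all genes rose and 5.61% fell. Tfpi, an inhibitor of coagulation, rose from 47.5, 36.2 and 42.5 to 82.8, 101 and 129.8 FPKM (log2 change 1.28, SE 0.16, adjusted p = 0.0034) and held, while Sparc, Thbd, Pth1r and Plat did not pass and had overlapping ranges. Lama1, a laminin chain of the embryonic basement membrane, was lower at p30 in line 1-1 and higher in the other lines (−0.67, 0.61 and 0.47 on the log2 scale).

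Of 9 tested trophoblast genes 3 fell and 0 rose (median change −0.58), where 5.61% of all genes fell and 3.08% rose. Those that fell were a pair of transcription factors and a surface protein. Gata2 was at 24.9, 33.7 and 13.6 FPKM at p5 and 2.22, 0.944 and 3.88 at p30 (log2 change −2.91, SE 0.39, adjusted p = 0.0039), Gata3 at 7.90, 9.78 and 5.86 and then 1.53, 0.875 and 1.26 (log2 change −1.98, SE 0.19, adjusted p = 0.0012), and Plet1, a surface protein of placental progenitors, at 4.92, 3.21 and 2.37 and then 0.445, 0.350 and 0.414 (log2 change −1.64, SE 0.23, adjusted p = 0.0044). All 3 held, with p30 below p5 in every pairing of libraries. The core trophoblast factors Cdx2 and Eomes did not pass: Cdx2 was at 2.59, 2.32 and 2.32 FPKM and then 3.13, 2.81 and 3.85, and Eomes at 14.9, 9.94 and 14.7 and then 7.90, 6.77 and 10.8 (adjusted p = 0.18 and 0.11). Pluripotency and germline factors gave 2 rises and 2 falls of 15. Lin28a, an RNA-binding protein, rose from 21.4, 31.9 and 32.5 to 42.4, 70.7 and 45.8 FPKM (log2 change 0.85, SE 0.22, adjusted p = 0.043), and Fbxo15 fell from 15.2, 17.7 and 11.7 to 3.77, 6.30 and 6.87 (log2 change −1.27, SE 0.22, adjusted p = 0.01). Sox2, a transcription factor of pluripotent and neural cells, fell from 21.8, 26.02 and 16.4 to 15.4, 7.28 and 9.61 FPKM (log2 change −0.96, SE 0.25, adjusted p = 0.046), though the calls of Sox2 and Lin28a failed in most fits without a library. Klf4 and Zfp42 did not pass and had overlapping ranges.

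The next list holds enzymes that act on threonine, glycine and homocysteine. Of 16 tested genes of glycine, threonine and one-carbon metabolism 5 rose and 0 fell, where 3.08% of all genes rose and 5.61% fell. The median change was 0.32 (0.30 to 0.42 over the scalings). With the ciXEN libraries alone 2 rose, against 167 of all 12443 genes, and without 1 library 3 to 5, against 145 to 354. Tdh, threonine dehydrogenase, makes glycine and acetyl-CoA in mouse embryonic stem cells, and rose from 6.23, 5.39 and 18.4 to 45.4, 72.9 and 87.9 FPKM (log2 change 2.80, SE 0.40, adjusted p = 0.0049). Gldc and Gcsh are subunits of the glycine cleavage system, which passes a carbon of glycine to folate. Gldc was at 9.21, 14.8 and 6.81 FPKM and then 49.96, 25.2 and 53.7 (log2 change 1.95, SE 0.32, adjusted p = 0.0082), with a smaller change in line 2-1, and Gcsh at 50.7, 55.97 and 64.2 and then 79.6, 81.2 and 91.6 (log2 change 0.56, SE 0.10, adjusted p = 0.012). Mtr, methionine synthase, which remethylates homocysteine, went from 8.02, 8.79 and 9.65 to 14.5, 13.5 and 13.02 FPKM (log2 change 0.58, SE 0.12, adjusted p = 0.021). Tdh held, Gldc and Gcsh passed in every fit but that of the ciXEN libraries alone, and Mtr failed without 3 of the libraries and with the ciXEN libraries alone.

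Cbs, cystathionine beta-synthase, which draws homocysteine away from methionine towards cysteine (ENSMUSG00000024039, chr17:31608894-31637238), moved the other way. It was at 33.1, 24.5 and 32.4 FPKM at p5 and 4.47, 2.95 and 5.34 at p30, a fall of 2.58 on the log2 scale that was alike in the 3 lines (−2.64, −2.69 and −2.40) and held (log2 change −2.58, SE 0.20, adjusted p = 7.9e-04). It stood in the list of amino acid synthesis and ATF4 response genes. Of these 2 of 29 rose and 1, Cbs, fell, where 3.08% of all genes rose and 5.61% fell. Gpt2, the mitochondrial alanine transaminase, rose from 8.74, 9.38 and 7.54 to 22.8, 20.2 and 22.8 FPKM (log2 change 1.27, SE 0.12, adjusted p = 0.0012) and held. The lines disagreed over that list as a whole, with 7 of 29 genes higher at p30 in line 1-1, 13 in line 2-1 and 26 in line 3-3.

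Of 25 glycolysis genes 5 rose and 1 fell (median 0.15), where 3.08% of all genes rose and 5.61% fell. The rises were 2 with the ciXEN libraries alone, against 167 of all 12443 genes, and 2 to 5 without 1 library, against 145 to 354. Of 25 citrate cycle genes 0 rose and 2 fell, and of 46 respiratory chain subunits 1 rose and 1 fell. Ldhb, the lactate dehydrogenase chain that favours lactate to pyruvate, fell from 107, 180.4 and 130.02 to 62.98, 50.8 and 62.9 FPKM (log2 change −1.20, SE 0.20, adjusted p = 0.0083) and held. Pfkp, a phosphofructokinase, rose from 3.81, 6.53 and 5.69 to 10.9, 8.66 and 13.3 FPKM (log2 change 0.92, SE 0.20, adjusted p = 0.023), and Pgam1, phosphoglycerate mutase, rose by 0.73 and held. The Pfkp call passed in 6 of the 9 fits without a library and failed with the ciXEN libraries alone. Eno1, enolase, rose by 0.66 (adjusted p = 0.03), but passed in 3 of the 9 fits without a library, and a near-identical copy of this gene could share its reads. Idh3b, a subunit of isocitrate dehydrogenase, fell from 152, 155 and 143 to 114, 98.6 and 116 FPKM (log2 change −0.45, SE 0.08, adjusted p = 0.011) and held. Of the fatty acid genes, the oxidation enzyme Acadm fell from 51.4, 52.7 and 55.3 to 37.2, 32.2 and 30.7 FPKM (log2 change −0.66, SE 0.09, adjusted p = 0.0049) and held, and Cpt1a, which admits fatty acids to mitochondria, from 25.6, 21.04 and 21.02 to 11.9, 5.85 and 12.3 (log2 change −1.15, SE 0.23, adjusted p = 0.019), a call lost without the p5 library of line 1-1 and with the ciXEN libraries alone.

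Of 36 tested DNA replication genes 6 rose and 0 fell (median 0.23), where 3.08% of all genes rose and 5.61% fell. At p30, 34, 29 and 29 of the 36 were higher in lines 1-1, 2-1 and 3-3. Rrm2, a subunit of ribonucleotide reductase, went from 45.2, 51.6 and 50.5 to 70.5, 80.9 and 81.5 FPKM (log2 change 0.65, SE 0.12, adjusted p = 0.014), and Gins2, a subunit of the replicative helicase, from 8.52, 10.9 and 11.1 to 16.3, 19.05 and 16.8 (log2 change 0.72, SE 0.14, adjusted p = 0.014). Both lost the call without the p5 library of line 1-1, Gins2 also with the ciXEN libraries alone. Over the 9 fits without a library 0 to 4 members rose, where 145 to 354 of all 12443 genes did. With library medians set equal 11 members rose, where 775 of all genes did. Of 35 cyclin, mitosis and proliferation genes 2 rose, Ccnd3 and Cdk4, and Mki67, a marker of cycling cells, was at 101, 96.1 and 108 FPKM and then 112, 106 and 94.03 (adjusted p = 0.9). Among 28 p53 targets, CDK inhibitors and senescence genes 2 rose and 0 fell. Cdkn2a, a CDK inhibitor locus that often rises in culture, was at 29.1, 33.3 and 33.6 FPKM and then 57.6, 49.04 and 45.2 (log2 change 0.64, SE 0.16, adjusted p = 0.038), and its p30 values lay above the MEF values of 26.99, 41.9 and 32.6. The Cdkn2a call passed in 3 of the 9 fits without a library and failed with quantile normalisation. Cdkn1a and Cdkn2b did not pass, with overlapping ranges. Hprt, the purine salvage enzyme, rose from 25.02, 27.1 and 27.05 to 44.6, 50.8 and 42.7 FPKM (log2 change 0.78, SE 0.10, adjusted p = 0.0035) and held.

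Of 29 tested Hox genes 5 rose (Hoxa10, Hoxa11, Hoxa13, Hoxc9 and Hoxc10) and 0 fell, where 3.08% of all genes rose and 5.61% fell. Their median change (0.02) was near that of all genes. With the ciXEN libraries alone 3 rose, against 167 of all 12443 genes, and without 1 library 3 to 6, against 145 to 354. Hoxa11 went from 0.198, 0.569 and 0.415 to 1.85, 4.28 and 3.09 FPKM (log2 change 1.51, SE 0.22, adjusted p = 0.0056), Hoxa13 from 0.817, 0.750 and 0.589 to 2.15, 2.73 and 2.41 (log2 change 1.00, SE 0.18, adjusted p = 0.012), and Hoxc10 from 1.62, 0.941 and 1.59 to 3.37, 5.61 and 4.14 (log2 change 1.16, SE 0.19, adjusted p = 0.0083). All 3 held and stayed below their levels in MEFs, 10.8, 11.3 and 12.99 FPKM for Hoxa11. Hoxa10 rose from 2.61, 2.76 and 3.69 to 5.98, 11.6 and 6.37 FPKM but not without the p5 library of line 1-1 or of line 2-1 or with the ciXEN libraries alone, and Hoxc9 from 2.04, 2.55 and 3.10 to 5.42, 7.74 and 5.11 (log2 change 0.99, SE 0.21, adjusted p = 0.022). Hoxa9 and Hoxd13 had overlapping ranges. In line 3-3 most Hox genes were lower at p30, with 9 of 29 higher, against 21 in line 1-1 and 18 in line 2-1.

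Of 33 chromatin modifiers 1 rose and 2 fell, and of 16 genes of DNA methylation 1 rose and 3 fell, where 3.08% of all genes rose and 5.61% fell. Smarca1, a chromatin remodelling ATPase, rose from 0.429, 0.360 and 0.445 to 2.42, 3.996 and 2.36 FPKM (log2 change 1.45, SE 0.20, adjusted p = 0.0044) and held. Tet2, which oxidises methylated cytosine, fell from 5.38, 4.56 and 5.001 to 2.92, 2.53 and 2.63 FPKM (log2 change −0.69, SE 0.12, adjusted p = 0.011) and held. Dnmt3b, a methyltransferase that sets new DNA methylation, fell from 39.7, 23.4 and 29.4 to 14.3, 14.8 and 20.7 FPKM (log2 change −0.84, SE 0.21, adjusted p = 0.039), but passed in 2 of the 9 fits without a library. Without 1 library 0 to 3 of the chromatin modifiers and 1 to 3 of the DNA methylation genes fell, against 298 to 690 of all 12443 genes. With the ciXEN libraries alone 0 and 1 did, against 264.

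Of 28 tested genes of the interferon response and of antigen presentation 1 rose and 5 fell, where 5.61% of all genes fell. With quantile normalisation or with the ciXEN libraries alone 3 fell, against 527 and 264 of all 12443 genes. Without 1 library 1 to 4 fell, against 298 to 690. The list had a median change of −0.48 over groups and of −0.35, −1.20 and 0 within lines 1-1, 2-1 and 3-3, and the median over groups was −0.66 to −0.13 without 1 library. Tapbp, tapasin, which loads peptides onto class I molecules (ENSMUSG00000024308, chr17:33915899-33929292), went from 25.5, 23.5 and 22.8 to 8.94, 7.60 and 6.20 FPKM (log2 change −1.55, SE 0.14, adjusted p = 0.0011) and held. H2-D1, a class I heavy chain, rose in the same libraries from 32.8, 43.2 and 35.6 to 81.9, 96.1 and 67.6 FPKM (log2 change 1.11, SE 0.15, adjusted p = 0.0044) and held, although its many relatives could share reads. Ifitm3, an antiviral membrane protein, went from 106, 113 and 149 to 26.3, 2.09 and 36.2 FPKM (log2 change −3.06, SE 0.76, adjusted p = 0.039), with line 2-1 far below the others. Oasl2, induced by interferon, went from 23.2, 19.7 and 13.02 to 5.95, 5.49 and 5.13 (log2 change −1.56, SE 0.38, adjusted p = 0.038). The calls of Ifitm3 and Oasl2 each failed in 6 of the 9 fits without a library, and both genes have close relatives. Serpinb9, which inhibits granzyme B, fell from 1.85, 2.13 and 1.02 to 0.290, 0.325 and 0.277 FPKM (log2 change −1.02, SE 0.17, adjusted p = 0.0096) and held.

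Among genes of signalling and growth, Gab1, a docking protein of receptor tyrosine kinases (ENSMUSG00000031714, chr8:80764438-80880519), was at 25.6, 25.6 and 25.95 FPKM at p5 and 9.82, 9.82 and 10.9 at p30 (log2 change −1.26, SE 0.10, adjusted p = 7.9e-04), with little spread at either passage. Gnas, the stimulatory G protein subunit that raises cAMP, rose from 61.6, 74.2 and 69.1 to 109.7, 111 and 103 FPKM (log2 change 0.65, SE 0.09, adjusted p = 0.0051), while 0 of 19 cAMP response genes were called. Both held. Dusp4, a phosphatase of MAP kinases, rose from 0.858, 1.17 and 1.19 to 5.99, 4.67 and 2.30 FPKM (log2 change 1.30, SE 0.27, adjusted p = 0.021), and 3 of 21 genes of FGF and MAPK feedback rose and 0 fell, against 3.08% of all genes that rose. This count was 6 with library medians set equal, against 775 of all 12443 genes. It was 0 with the ciXEN libraries alone, against 167, and 0 to 5 without 1 library, against 145 to 354. The Dusp4 call passed in 6 of the 9 fits without a library and failed with the ciXEN libraries alone. Kdr, a VEGF receptor, fell from 1.99, 1.67 and 1.65 to 0.521, 0.0911 and 0.235 FPKM (log2 change −1.12, SE 0.18, adjusted p = 0.0083) and held. Of 29 TGF-beta, activin and BMP genes 4 fell and 0 rose, against 5.61% of all genes that fell. Of these genes 2 fell with library medians set equal or with quantile normalisation, against 536 and 527 of all 12443 genes. With the ciXEN libraries alone 0 fell, against 264, and without 1 library 1 to 4, against 298 to 690. The receptor Tgfbr2 went from 23.7, 21.5 and 21.3 to 6.18, 6.98 and 12.6 FPKM (log2 change −1.33, SE 0.22, adjusted p = 0.0083). Itgb6, an integrin chain of epithelia, fell from 4.46, 6.16 and 4.51 to 1.09, 0.567 and 0.550 FPKM (log2 change −1.80, SE 0.18, adjusted p = 0.0014), and Mmp15, a membrane-bound protease, from 40.7, 36.8 and 33.7 to 19.4, 17.98 and 16.4 (log2 change −1.01, SE 0.13, adjusted p = 0.0031). Nrp2, a receptor for semaphorins and VEGF, rose from 0.0902, 0.153 and 0.191 FPKM to 2.81, 3.14 and 1.19 (log2 change 1.51, SE 0.25, adjusted p = 0.0089), far below the 38.6, 28.6 and 43.8 of MEFs. These 3 held.

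Of 35 genes of the cytoskeleton and contraction 4 rose and 1 fell, where 3.08% of all genes rose and 5.61% fell. Among those that rose 3 were tubulins. Tubb6, a beta-tubulin, went from 26.9, 29.7 and 25.1 to 47.03, 59.2 and 54.4 FPKM (log2 change 0.95, SE 0.14, adjusted p = 0.0054) and held. Tuba1a and Tubb2a passed in 2 and 1 of the 9 fits without a library, and tubulin genes are alike enough to share reads. Zyx, zyxin, a protein of focal adhesions, fell from 78.4, 77.4 and 67.7 to 39.1, 57.2 and 40.8 FPKM (log2 change −0.71, SE 0.17, adjusted p = 0.037). The Zyx call passed in 2 of the 9 fits without a library and failed with library medians set equal. Of 27 basement membrane and integrin genes 3 rose and 3 fell. Agrn and Hspg2, the heparan sulfate proteoglycans agrin and perlecan, rose from 36.7, 45.4 and 40.4 to 73.4, 59.7 and 78.7 and from 26.3, 27.6 and 27.4 to 45.8, 56.7 and 37.5 FPKM, and Agrn held (log2 change 0.77, SE 0.12, adjusted p = 0.008). Hspg2 passed in 4 of the 9 fits without a library and failed with the ciXEN libraries alone. Itga6, a laminin-binding integrin chain, fell from 30.01, 28.8 and 23.8 to 17.4, 13.6 and 7.44 FPKM (log2 change −1.11, SE 0.25, adjusted p = 0.029), a call lost without 4 of the libraries.

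Among connexins and ion channels 2 of 21 rose and 4 fell, where 3.08% of all genes rose and 5.61% fell. The intracellular chloride channel family was split: Clic1 rose from 118, 131 and 113 to 188, 223 and 191 FPKM (log2 change 0.73, SE 0.09, adjusted p = 0.0036), while Clic3 fell from 2.37, 2.58 and 2.16 to 0.645, 0.0538 and 0.477 (log2 change −1.30, SE 0.20, adjusted p = 0.0073), and both held. Clic6 rose from 8.91, 11.7 and 7.74 to 22.1, 21.2 and 28.9 FPKM (log2 change 1.27, SE 0.23, adjusted p = 0.013), with a call lost without the p5 library of line 1-1. Kcnk1, a potassium channel, fell from 48.9, 48.3 and 43.7 to 15.03, 22.1 and 19.2 FPKM (log2 change −1.29, SE 0.28, adjusted p = 0.023), and Gjb5, a connexin of skin and placenta, from 38.1, 20.4 and 12.5 to 2.25, 9.57 and 5.34 (log2 change −1.90, SE 0.46, adjusted p = 0.036). Of these, Kcnk1 passed in 5 of the 9 fits without a library and Gjb5 in 2.

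In the lists of stress and degradation, Hspa1a and Hspa1b, the inducible heat shock proteins, fell from 6.43, 5.54 and 4.78 to 2.21, 2.58 and 1.48 and from 8.15, 7.25 and 6.65 to 3.89, 4.13 and 3.09 FPKM, near-identical genes whose reads could be shared. Of 29 chaperone genes 1 rose and 2 fell, where 3.08% of all genes rose and 5.61% fell. Fth1, the ferritin heavy chain, rose from 527, 543 and 529 to 676, 698 and 693 FPKM (log2 change 0.37, SE 0.06, adjusted p = 0.011), a small change that was alike in the 3 lines and held. Of 32 NRF2 and glutathione genes 3 rose and 3 fell, and of 29 lysosome and autophagy genes 3 rose and 1 fell. Ctsd, cathepsin D, fell from 102, 117 and 89.1 to 63.5, 55.2 and 71.3 FPKM (log2 change −0.68, SE 0.12, adjusted p = 0.012), while Ctsc, cathepsin C, rose from 6.72, 8.42 and 4.74 to 18.6, 17.7 and 12.8 (log2 change 1.20, SE 0.25, adjusted p = 0.022). Neither was called with the ciXEN libraries alone (adjusted p = 0.06 and 0.059).

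Of 21 imprinted genes 3 rose and 2 fell, where 3.08% of all genes rose and 5.61% fell. Phlda2, a maternally expressed gene that limits placental growth, rose from 1.76, 1.04 and 1.28 to 4.42, 6.08 and 2.94 FPKM (log2 change 1.19, SE 0.22, adjusted p = 0.013), and Ndn, a paternally expressed gene that encodes necdin, from 0.138, 0.630 and 0.512 to 3.83, 6.03 and 1.22 (log2 change 1.58, SE 0.36, adjusted p = 0.029). Peg3, a paternally expressed zinc finger gene, fell from 102, 98.4 and 112 to 64.8, 78.9 and 52.2 FPKM (log2 change −0.68, SE 0.16, adjusted p = 0.032). Phlda2 passed in every fit but that of the ciXEN libraries alone, and Ndn and Peg3 in 2 and 3 of the 9 fits without a library. Hmga1 and Hmga2, architectural chromatin proteins of embryonic cells, moved apart: Hmga1 rose from 131, 149 and 145 to 190.01, 269.9 and 211 FPKM and Hmga2 fell from 150.3, 158 and 131 to 104, 113 and 91.7 (log2 change 0.64, SE 0.16, adjusted p = 0.041 for Hmga1, log2 change −0.50, SE 0.11, adjusted p = 0.027 for Hmga2). They passed in 3 and 5 of the 9 fits without a library. Of 33 guidance and Notch genes 4 rose and 3 fell, among them the ephrin receptors Epha2, which rose from 2.31, 2.91 and 2.08 to 7.22, 4.73 and 5.85 FPKM, and Epha1, which fell from 6.98, 8.38 and 5.42 to 3.84, 1.75 and 2.26.

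Of the 56 lists 6 had no called member, among them fibroblast genes (18 tested), collagens and matrix crosslinking (20), cAMP response genes (19), immediate early genes (22) and the Y-linked genes (4). The share called over all genes was 8.69%. The immediate early genes had a median change of −0.37, with 5, 4 and 12 of 22 higher at p30 in lines 1-1, 2-1 and 3-3. Fos, the best known of them, was at 1.26, 22.5 and 0.276 FPKM and then 0.463, 0.306 and 0.287, high in line 2-1 at p5 alone among ciXEN libraries. Cholesterol synthesis genes had a median change of 0.24, with 19, 21 and 8 of 23 higher in lines 1-1, 2-1 and 3-3. Among the 23, 2 rose, against 3.08% of all genes.

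**Figure D3:**
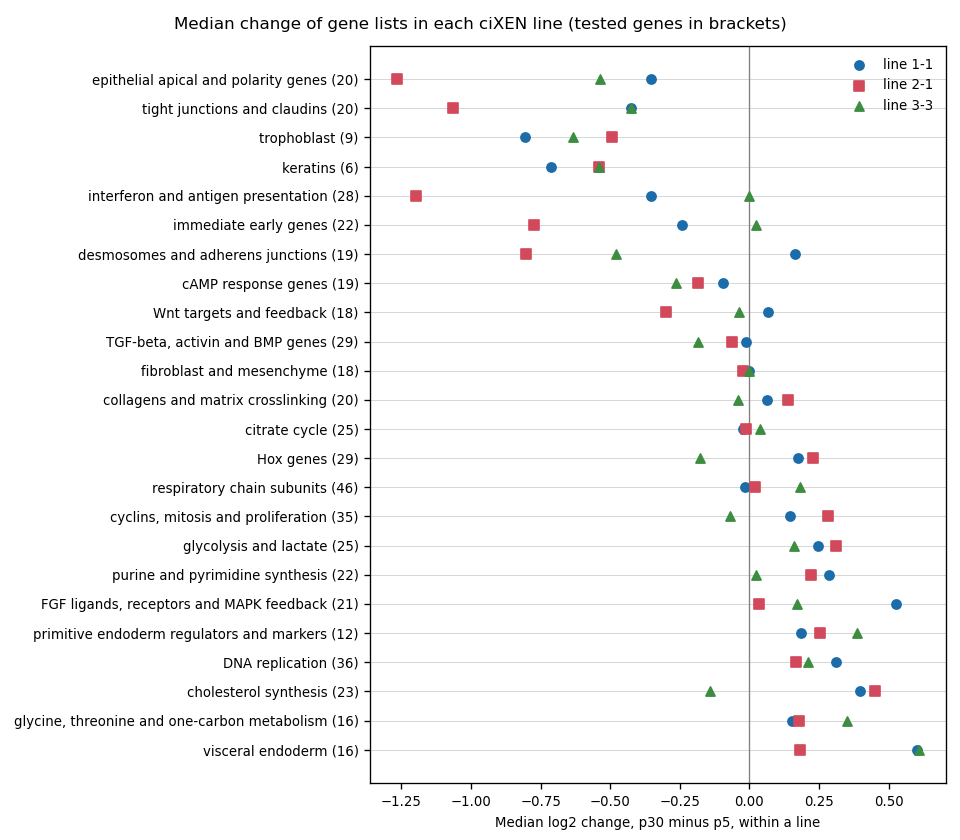
Median within-line change (log2, p30 minus p5, horizontal axis) of 24 gene lists in each ciXEN line, with the number of tested genes in brackets and 0 marked. The lists of apical and polarity genes, tight junctions, trophoblast genes and keratins lie below 0 in all 3 lines, while visceral and primitive endoderm, replication and one-carbon genes lie above 0; interferon genes are lowest in line 2-1.

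A single chromosome stood apart in 1 of the 6 libraries. The 491 tested genes of chromosome 15 had a median deviation of 0.22 (log2) from the mean of the 6 libraries in line 1-1 at p5, and of −0.06 to −0.02 in the other 5. No other autosome deviated by more than 0.063 in any library. Within line 1-1, 75.2% of the chromosome 15 genes were lower at p30, against 49.2% of all genes, with a median change of −0.28. In lines 2-1 and 3-3 the medians were −0.03 and −0.06. With the genes of chromosomes 15 and Y left out, an alternative chosen after seeing the data, 1032 genes were called and 0 of the named calls among the rest were lost. Over the epithelial lists 61 genes were then tested instead of 65. Of these 17 fell and 2 rose, where 5.52% of all genes fell. Dab2, Hoxc10 and Grhl2, which are among the genes on chromosome 15, moved in all 3 lines. Genes of the X chromosome had a median change of 0.16 in line 1-1 and of 0.01 in each of the other lines.

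**Figure D4:**
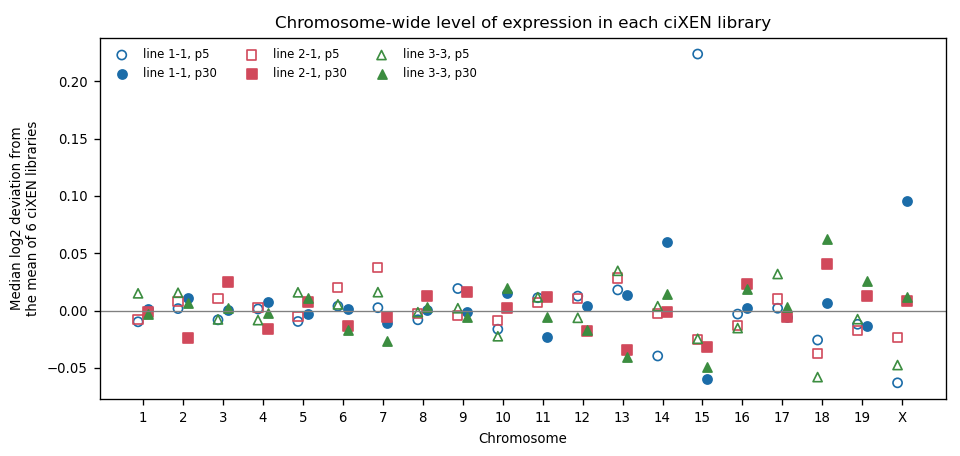
Median deviation (log2) of the genes of each chromosome from the mean of the 6 ciXEN libraries, open symbols for p5 and filled for p30. Chromosome 15 in line 1-1 at p5 lies at 0.22, apart from all other points, and the next highest is chromosome X in line 1-1 at p30 at 0.096.

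The Y-linked genes differed between lines at p30. Eif2s3y, a translation factor subunit, was at 34.05, 39.9 and 17.01 FPKM at p5 and 0.00816, 0 and 24.1 at p30. Ddx3y, an RNA helicase, was at 7.37, 8.84 and 3.29 FPKM and then 0.0683, 0.316 and 6.65, and Uty, a relative of a histone demethylase, at 4.04, 3.48 and 2.23 and then 0, 0.0424 and 3.85. Kdm5d, a histone demethylase, was at 1.95, 2.22 and 0.436 FPKM and then 0.0314, 0.0580 and 0.884. All 4 were thus at or near 0 at p30 in lines 1-1 and 2-1 and were higher at p30 than at p5 in line 3-3. None passed the test of the groups (adjusted p = 0.086, 0.16, 0.17 and 0.16). Each has a close relative on the X chromosome, and MEFs held all 4, with Eif2s3y at 10.5, 12.01 and 10.01 FPKM. Ddx3y, Uty and Kdm5d were chosen after their values were seen.

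**Figure D5:**
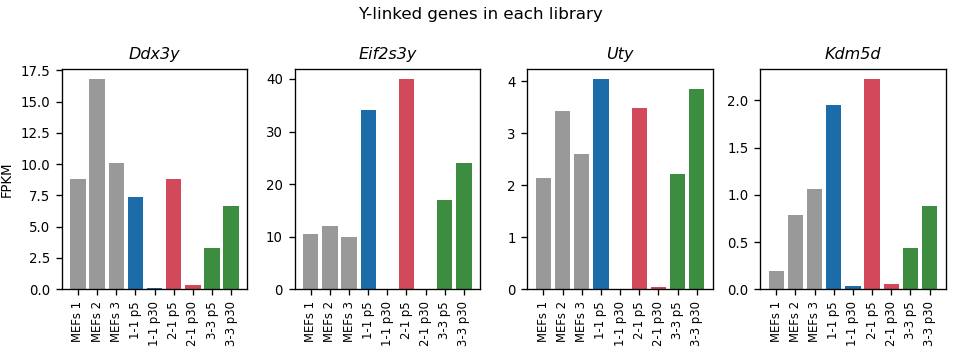
FPKM of 4 Y-linked genes in each of the 9 libraries, 1 bar per library, MEFs in grey and each ciXEN line in its own colour. The bars of lines 1-1 and 2-1 at p30 are at or near 0 in all 4 panels, while line 3-3 keeps its signal at p30, with Eif2s3y at 24.1 FPKM.

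Not every large difference was shared. In 89 genes 1 line was at least 2-fold higher and another at least 2-fold lower at p30. Rnf26, Nupr1 and Pik3c3 were among them and are given further below, while the genes described next did not meet this measure. Nr0b1, a transcription factor of steroid and stem cells, was at 2.10, 15.2 and 1.02 FPKM and then 4.08, 0.0504 and 1.09, and lost in line 2-1 alone. Gpx2, a glutathione peroxidase of gut epithelium, was at 0.185, 37.3 and 0.115 FPKM and then 0.682, 0.280 and 0.00677, present in line 2-1 at p5 and near 0 elsewhere. Apoc1, an apolipoprotein, was lower at p30 in all 3 lines, at 63.8, 27.1 and 0.877 FPKM and then 0.753, 5.71 and 0.193, but the ranges overlapped and it did not pass (adjusted p = 0.19). Tdgf1, a co-receptor of Nodal related to Cfc1, was at 21.8, 14.3 and 0.209 FPKM and then 0.979, 2.06 and 0.896 (adjusted p = 0.27), lower in lines 1-1 and 2-1 and not in line 3-3. Col4a1 was at 93.6, 739 and 80.3 FPKM and then 52.6, 506 and 648, high in line 2-1 at both passages and in line 3-3 at p30, whereas its neighbour Col4a2 fell in each line from 601, 653 and 618 to 368, 377 and 493 FPKM (log2 change −0.61, SE 0.15, adjusted p = 0.038). The Col4a2 call passed in 3 of the 9 fits without a library and failed with library medians set equal.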

How the data were processed

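The authors sequenced RNA after removal of ribosomal RNA with a stranded kit and deposited FPKM per mouse Ensembl transcript, without read counts. Tools named in the submitters' processing notes are StringTie, cutadapt, STAR 2.5.2b and HISAT2 2.0.5, beside the human build hg19; the step that made the values was not given in the sources used here. Of 29599 transcripts, 29521 matched GENCODE M21 (GRCm38), and the 78 others, with 0.158% of the FPKM, were left out. FPKM were summed per gene and no library was rescaled. Depth is unknown: low values fell near whole steps too seldom (28.5% to 31.3%, against 20% by chance) to rebuild counts.

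The fit covered the 12443 genes that averaged 0.5 FPKM or more and used limma 3.58.1 in R 4.3.3 (eBayes with trend, log2(FPKM + 1), 3 groups, contrast p30 minus p5), and other steps used Python 3.11.15. On simulated data of this comparison (12443 genes), the share called was 38% at a log2 change of 0.58, 78% at 1, 96% at 2 and 100% at 4, while 13 of 12243 genes left as they were passed. In the simulation unchanged genes had the same mean and the same normal spread in MEF, p5 and p30 libraries. The changed genes were drawn from the more expressed ones. Genes near 0 in MEFs alone were not modelled, so these shares may not hold for the real fit. The line names pair the ciXEN libraries, and the deviations of paired libraries correlated at −0.0054, 0.014 and 0.071. Between p5 and p30 libraries of different lines these correlations ran from −0.120 to 0.103, so the pairs of a line did not stand apart. The fit with the line as a block was an alternative, beside other pseudocounts, filters and scalings and leaving out each library. The members, gene lists, alternatives and rules were chosen with earlier results of these data known.

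Named were the 20 rises and 20 falls with the largest change in their least changed line (called, passages not overlapping, 5 FPKM or more at a passage), up to 4 called members per list and up to 2 against the rest, markers the study names, and up to 10 genes that differ most between lines. Genes outside this rule (Snai1, Snai2, Hoxc9, Zeb2, Tjp1, Krt8, Krt18, Hnf4a, Cdx2, Eomes, Klf4, Zfp42, Mki67, Cdkn1a, Cdkn2b, Hoxa9, Hoxd13, the parietal, macrophage and hepatocyte markers and 3 Y-linked genes) were added after their values were seen. Some genes that the rule names are not reported here. Promoters come from RefSeq (GRCm38.p6).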

Additional observations from a re-analysis of the deposited data

Results flagged for a closer look

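A set of 3 genes changed strongly in opposite directions between lines, and the difference between lines was not tested for any of them, since each line has 1 library per passage. Rnf26, a ubiquitin ligase, was at 10.6, 13.7 and 0.0676 FPKM at p5 and 0.00199, 0.00178 and 9.12 at p30, and its within-line changes spanned 7.12 on the log2 scale. It was also at 0.0016 FPKM in 1 MEF library, against 7.52 and 7.82 in the others. Nupr1, a stress-induced nuclear protein, was at 7.36, 9.70 and 0 FPKM and then 0.703, 2.77 and 14.03, a span of 6.20, lower in lines 1-1 and 2-1 and higher in line 3-3. Pik3c3, a lipid kinase of autophagy, was at 28.1, 27.6 and 5.05 FPKM and then 19.3, 1.78 and 26.3, a span of 5.53, with the fall in line 2-1 and the rise in line 3-3. None passed the test between passages (adjusted p = 0.57, 1 and 0.74).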

How the results depend on the processing

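Against 1081 calls (383 higher, 698 lower), limma gave 431 (167 higher, 264 lower) with the ciXEN libraries alone and 0 (0 higher, 0 lower) with the line as a replicate block, where 2538 genes had an unadjusted p under 0.05. The block on all 9 libraries, where MEFs share only a number with the lines, gave 813. Leaving out each library gave 443 to 988 calls, 145 to 354 higher and 298 to 690 lower. Setting library medians equal gave 775 higher calls, so that 59.1% of calls were higher, against 35.4% as deposited and 46.6% after quantile normalisation, and 248 genes at least 1.5-fold higher in all 3 lines. With a pseudocount of 0.1, 958 genes changed by 1.5-fold in all 3 lines, 306 higher and 652 lower, against 585, 165 and 420 with 1. Other pseudocounts, filters and the fit without the trend left the counts of calls within 1.5 times. Of the 186 named calls, 105 were lost with the ciXEN libraries alone, 186 with the block and 33 to 97 without 1 library. None reversed, which the shared direction in all 3 lines made likely in advance. The causes were not tested. Depth is unknown, so low values carry an error that could not be given.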
